A study of Homo sapiens with 8 samples.

Results

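Peaks of the tumour suppressor p53 were examined at 6 loci of the DNA damage response, XPC, DDB2, POLH, PCNA, RRM2B and GADD45A, in chromatin immunoprecipitation with sequencing (ChIP-seq) of 293T cells. The members are the called peaks that share at least 1 bp with a fixed window around each gene on build hg19, and the windows together span 272 kb. They held 86 of 97582 peaks over the 4 library lists, and these merged into 40 of 63890 sites, a site being a run of peaks that overlap in any of the lists. Every window held peaks in all 4 libraries, and each had at least 1 position where the summits of doxorubicin-treated and vehicle-treated cells lay close together.

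293T is a human embryonic kidney line that carries large T antigen, a viral protein that binds p53, so all groups share that background. The Dox group had doxorubicin, a drug that poisons topoisomerase and breaks DNA, at 0.5 µg/ml for 24 h, and the PBS group had the phosphate-buffered saline vehicle for 24 h. Each group had 2 ChIP libraries made with the same p53 antibody, replicate 1 from passage 3 and replicate 2 from passage 5. The labels do not say whether the libraries came from separate cultures, and any test here measures the spread between these libraries. The lists differed in length, with 46658 and 16642 peaks in Dox replicates 1 and 2, and 11304 and 22978 peaks in PBS replicates 1 and 2. The lists give no read depth, and p53 need not be bound wherever a peak was called.

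p53 is a transcription factor that binds as a tetramer to pairs of similar half-sites and raises the transcription of many genes after DNA damage. Part of that programme acts on the damage itself. XPC recognises distorted DNA at the start of nucleotide excision repair, and DDB2 is the subunit of the UV-damaged DNA-binding complex that finds ultraviolet photoproducts in chromatin. POLH encodes DNA polymerase eta, which copies past such photoproducts, and PCNA encodes the sliding clamp that holds polymerases on DNA. RRM2B encodes the p53-inducible small subunit of ribonucleotide reductase, which supplies deoxynucleotides, and GADD45A encodes a stress protein that binds PCNA and the cell cycle inhibitor p21. Published p53 elements of RRM2B and GADD45A lie in introns, and those of DDB2 and PCNA lie near a transcription start.

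RefSeq promoter sequences on GRCh38.p14 are reported here for 4 of the 6 genes, 6 entries in all. Any entry of RRM2B was left out of that count and is not reported here. The entries each run from 250 bases before to 50 bases after an annotated start. They are shown for the stretch near those starts that most resembles a p53 element. The peaks are placed on hg19, so whether a printed stretch lies under a peak was not determined. Capitals mark the pair of half-sites, with at most 13 bases between them, that best matched the p53 half-site consensus of 10 bases. That consensus is its own reverse complement, so one strand covers both.

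DDB2, chr11:47214724-47215023, plus strand: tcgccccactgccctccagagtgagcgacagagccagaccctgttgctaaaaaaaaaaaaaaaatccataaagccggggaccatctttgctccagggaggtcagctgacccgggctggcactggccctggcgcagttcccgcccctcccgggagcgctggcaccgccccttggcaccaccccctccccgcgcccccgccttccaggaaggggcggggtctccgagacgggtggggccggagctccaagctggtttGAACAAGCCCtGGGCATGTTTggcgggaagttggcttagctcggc
PCNA, chr20:5119909-5120208, minus strand: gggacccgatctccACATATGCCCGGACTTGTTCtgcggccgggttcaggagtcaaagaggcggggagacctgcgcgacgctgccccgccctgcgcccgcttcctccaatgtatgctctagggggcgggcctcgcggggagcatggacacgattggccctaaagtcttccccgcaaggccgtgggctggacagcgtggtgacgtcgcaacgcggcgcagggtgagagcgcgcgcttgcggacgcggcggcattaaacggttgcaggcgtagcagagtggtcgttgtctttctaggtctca
XPC, chr3:14178552-14178851, minus strand: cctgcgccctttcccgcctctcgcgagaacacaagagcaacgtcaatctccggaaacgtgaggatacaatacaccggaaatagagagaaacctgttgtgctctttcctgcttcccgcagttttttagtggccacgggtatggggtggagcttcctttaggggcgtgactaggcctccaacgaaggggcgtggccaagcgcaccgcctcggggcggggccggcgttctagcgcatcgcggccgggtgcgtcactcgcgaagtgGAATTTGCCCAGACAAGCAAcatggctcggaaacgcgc

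The DDB2 pair matched the consensus at 20 of 20 bases with a spacer of 1 base, and it ran from 5 to 25 bases after the start. Of 35116 promoter entries of the same length in the table, 10 (0.0285%) held a pair that matched at every base, and 6.63% held at least 1 perfect half-site. The PCNA pair, at -236 to -217 from a start, matched at 18 of 20 bases with no spacer, a score reached by 7.82% of entries. The XPC pair matched at 17 of 20 bases, which 39.1% of entries reached, and the pairs of the other entries matched at 15 or 16 bases, which 98.9% and 84.2% reached. Of the entries reported, only the DDB2 match, and to a lesser extent that of PCNA, was therefore uncommon among promoters. The best pairs of the other POLH, PCNA and DDB2 entries were these.

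POLH, chr6:43575935-43576234, plus strand: CAACTCGCGCtggGAAGAAGCCG
PCNA, chr20:5126573-5126872, minus strand: GAGCAGGGCTcgGAGCGAGTGC
DDB2, chr11:47214204-47214503, plus strand: AGCCTTGGCTggcaccGGGCCTCCTC

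A match is a description of the letters and does not show a bound site.

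All 6 windows contained a site with a peak in each of the 4 libraries. Over the genome cut into 66950 stretches as long as the mean window (45333 bp), 4.61% held such a site, and 6.55% held a peak of each library at any position. At least 1 peak lay in 28.9% and 14.5% of the stretches for the Dox lists, against 10.8% and 19.4% for the PBS lists (replicate 1 before 2). The stretches include assembly gaps and gene-poor DNA, and the windows were picked around known p53 target genes and differ in length (24 to 60 kb), so this is a background level and no test. Nearest outside the windows lay a 2.60-fold peak of PBS replicate 2, 555 bp below the GADD45A window, and a 2.47-fold peak of Dox replicate 1, 965 bp below the XPC window. Of the 40 sites, 7 had a peak in all 4 libraries, and 6.01% of all merged sites did. Another 5 sites had a peak in 3 libraries (7.47% of all sites) and 24 in 1 library alone (72.5% of all sites). Of these 24, 17 were in Dox replicate 1, whose list held 46658 of the 97582 peaks. The share of Dox replicate 1 among all sites of the genome found in 1 library was not computed. Sites shared by the Dox pair and missing from both PBS lists numbered 0 (3.11% of all sites), and those shared by the PBS pair and missing from both Dox lists numbered 1 (0.928% of all sites).

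Each peak carries the authors' fold enrichment at the summit over the caller's local background, a p-value and a q-value. Fold and p depend on each library and its control, so they are used to rank peaks within a list. The percentile given below is the share of the other peaks of the same list whose p was equal or larger, so that a high percentile marks a strong peak. Summits were joined into a group when the next lay within 250 bp, a distance chosen after seeing the data. A leading site was taken in each window as the group that had a summit in all 4 libraries and the highest median percentile.

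**Figure D1:**
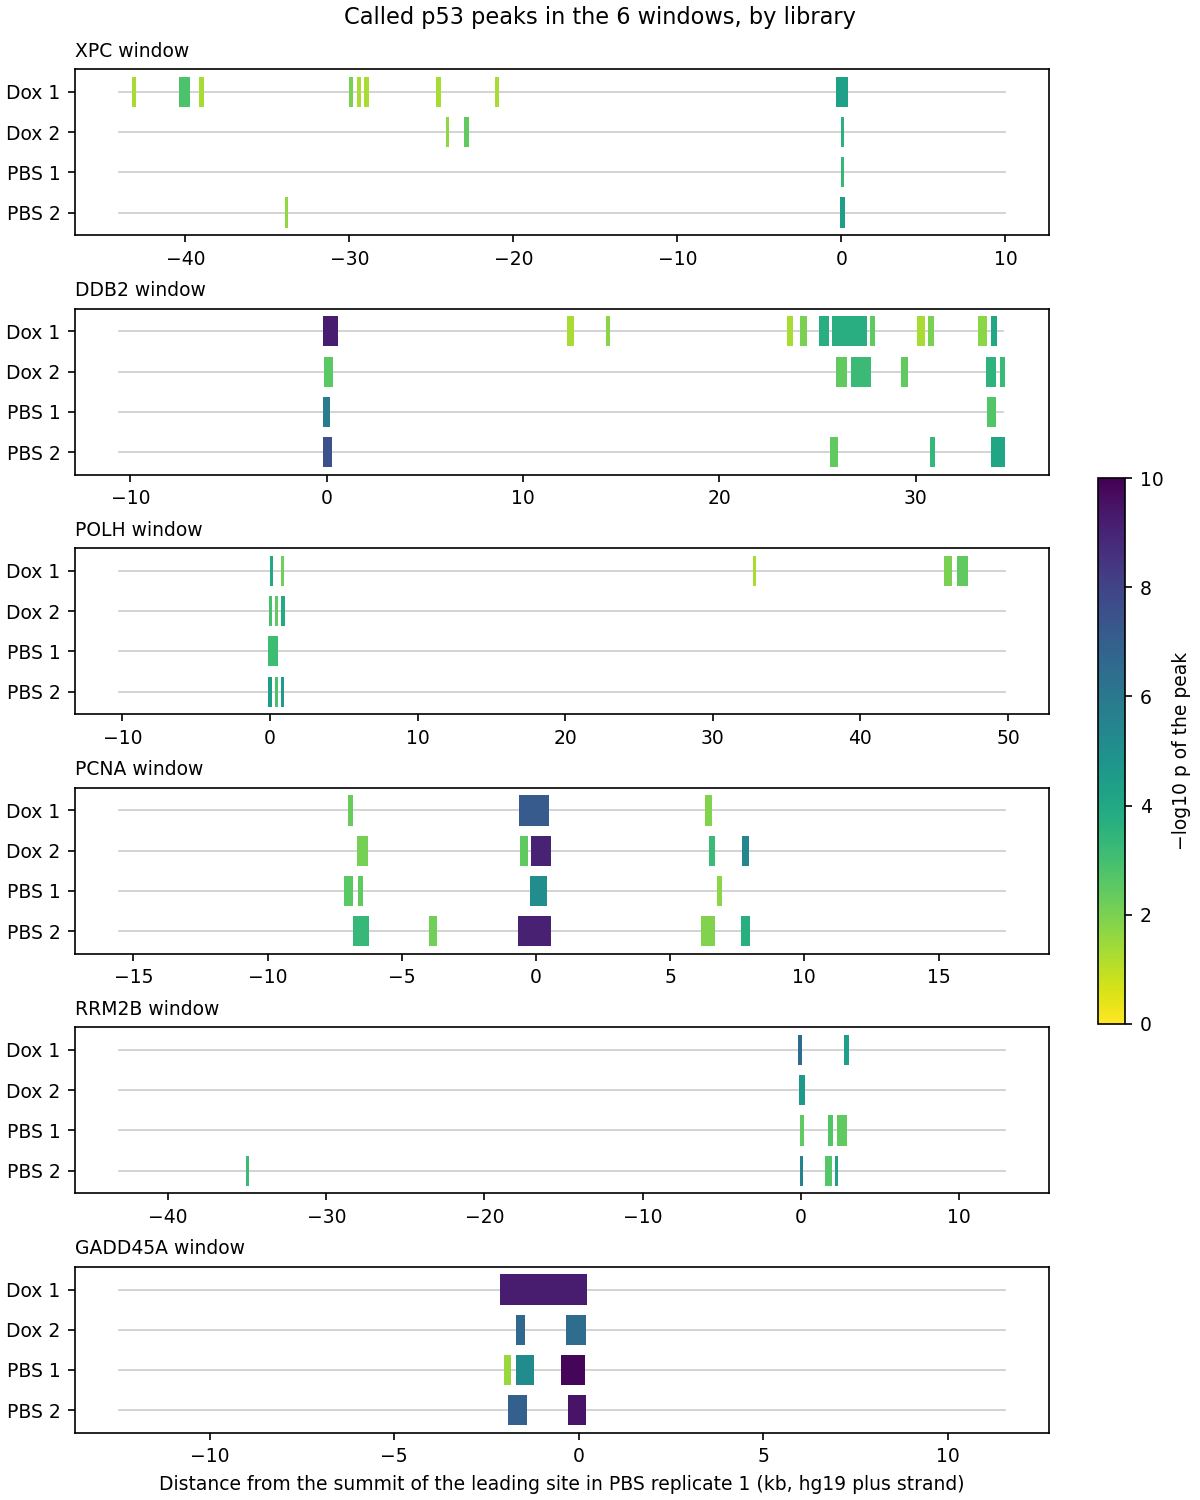
Called peaks in the 6 windows, drawn against the distance in kb from the leading summit in PBS replicate 1, with a row for each library and the colour giving the −log10 p of the peak. The 4 rows line up at 0 by the rule that picked the leading site, while most other blocks, such as those of the XPC window, appear in 1 row alone.

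The leading sites of the nucleotide excision repair genes XPC and DDB2 had a summit in every library by the rule that picked them. The XPC window ran from 14176000 to 14230000 on chromosome 3, and the leading summits lay between 14220001 and 14220058, within 57 bp of each other. Enrichment at XPC was 3.62-fold and 3.04-fold in Dox replicates 1 and 2, against 3.40-fold and 3.56-fold in PBS replicates 1 and 2. The −log10 p was 4.33 and 3.63 in the Dox libraries, against 3.35 and 4.48 in the PBS libraries, and the percentiles were 93.5 and 83.5, against 83.5 and 89.5. The groups thus overlapped, and XPC reached a −log10 q of 1.3 (a q of about 0.05) in 0 of 4 libraries. It was the narrowest range of enrichment among the 6 leading sites.

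The other XPC peaks were weak and did not recur between libraries. Dox replicate 1 had 8, Dox replicate 2 had 2, PBS replicate 1 had none and PBS replicate 2 had 1. They lay at -43.1 to -21.0 kb from the leading summit, that is at lower coordinates, with enrichments of 1.88-fold to 2.92-fold, and each was found in 1 library alone.

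The DDB2 window ran from 47226000 to 47271000 on chromosome 11, and its leading summits lay between 47236549 and 47236619, within 70 bp. Enrichment was 6.33-fold and 2.36-fold in Dox replicates 1 and 2, against 4.71-fold and 4.79-fold in PBS replicates 1 and 2. The −log10 p was 9.23 and 2.55 in the Dox libraries, against 5.87 and 7.53 in the PBS libraries. Dox replicate 1 was thus highest and Dox replicate 2 lowest, with both PBS libraries between them. In 3 lists the DDB2 peak stood at percentile 96.7 or above, whereas in Dox replicate 2 it stood at percentile 57.1 by p and 14.4 by fold. In that library a DDB2 peak far from the leading site, with a summit at 47270301, had a smaller p, with a −log10 p of 3.55. The −log10 q at the leading site was 4.66 and 0 in the Dox libraries, against 1.25 and 3.12 in the PBS libraries.

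DDB2 also had the largest set of further peaks, all at higher coordinates than the leading site. Dox replicate 1 had 11 and Dox replicate 2 had 5, against 1 in PBS replicate 1 and 3 in PBS replicate 2. Most lay 25.9 to 34.4 kb from the leading summit, toward the neighbouring gene ACP2, which RefSeq lists next to DDB2. Which gene they overlap was not determined. One of these sites, from 47269710 to 47271112, had a peak in all 4 libraries, enriched between 2.37-fold and 3.93-fold. It crosses the upper limit of the window: a peak of Dox replicate 2 ended at 47271112 and one of PBS replicate 2 at 47271086. A wide site from 47262185 to 47264505 had peaks in both Dox libraries, with −log10 p up to 3.71 and 3.21 in Dox replicates 1 and 2, and in PBS replicate 2, with 2.44. When peaks under a −log10 p of 3 were left out this site was found in both Dox libraries alone, so its pattern depends on the threshold.

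**Figure D2:**
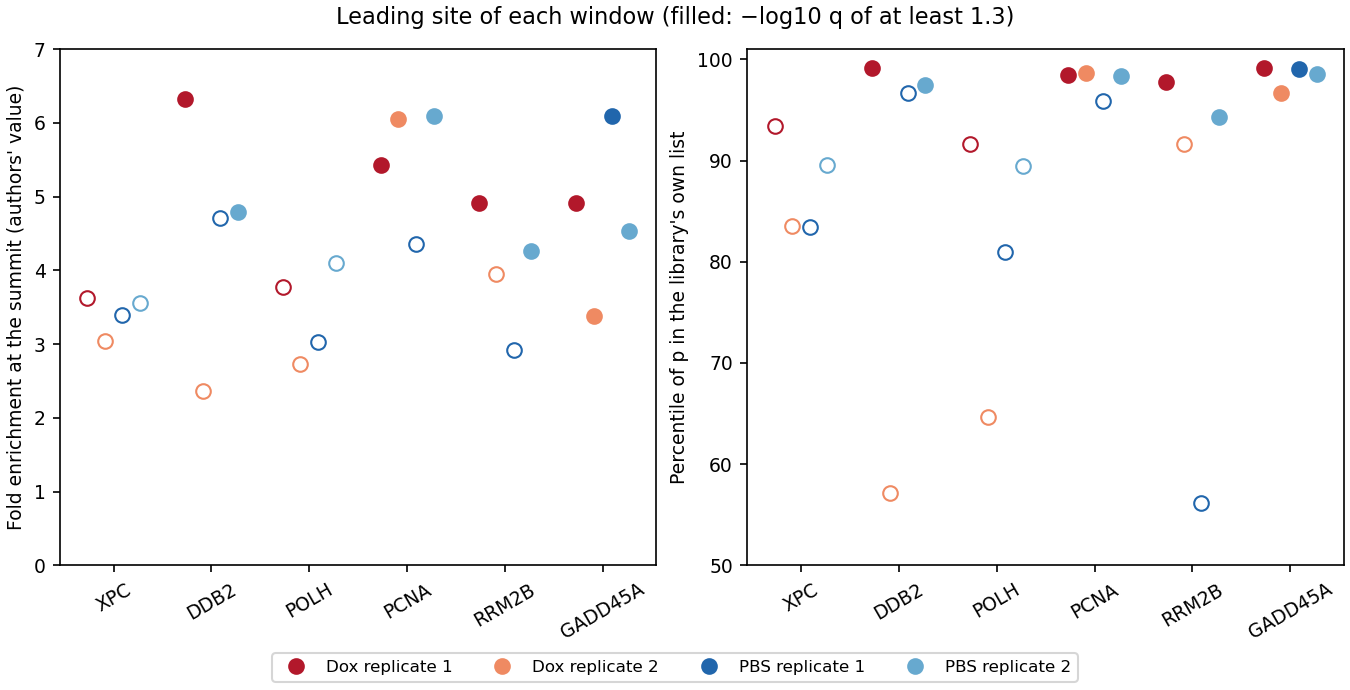
Leading site of each window by library, as the authors' fold enrichment on the left and as the percentile of p within the library's own list on the right, with a filled circle where −log10 q was at least 1.3. GADD45A is filled in all 4 libraries and XPC and POLH in none, and the open circles near percentile 57 are DDB2 in Dox replicate 2 and RRM2B in PBS replicate 1.

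The leading sites of POLH and PCNA, which act where DNA is copied, likewise had a summit in every library by that rule. The POLH window ran from 43533000 to 43593000 on chromosome 6, and its leading summits lay between 43543141 and 43543304. Enrichment at POLH was 3.78-fold and 2.74-fold in Dox replicates 1 and 2, against 3.03-fold and 4.10-fold in PBS replicates 1 and 2. Percentiles were 91.6 and 64.7 in the Dox libraries, against 81.0 and 89.5 in the PBS libraries, and the −log10 q was below 1.3 in all 4. The values of the groups overlapped. Beside the leading site, POLH had a second site, from 43543933 to 43544212, which was enriched 2.43-fold in Dox replicate 1 and 3.51-fold in Dox replicate 2, with no peak in PBS replicate 1 and 3.97-fold enrichment in PBS replicate 2. In Dox replicate 2 and PBS replicate 2 this second peak had the smaller p of the pair, with −log10 p of 3.91 and 4.52. Another summit between them was called in Dox replicate 2 and PBS replicate 2 alone, and the PBS replicate 1 peak, 690 bp wide, covered that position without a summit of its own there. In RefSeq, XPO5 and GTPBP2 flank POLH, and the gene under each peak was not determined.

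PCNA had one of the strongest leading sites. Its window ran from 5085000 to 5118000 on chromosome 20, with leading summits between 5100517 and 5100705. Enrichment was 5.44-fold and 6.05-fold in Dox replicates 1 and 2, against 4.36-fold and 6.10-fold in PBS replicates 1 and 2. The −log10 p was 7.15 and 9.05 in the Dox libraries, against 5.13 and 9.08 in the PBS libraries, and the percentiles ran from 95.9 to 98.6 over the 4 lists. The −log10 q was 2.84 and 4.30 in the Dox libraries, against 0.603 and 4.51 in the PBS libraries, so PBS replicate 1 was the only library below 1.3. The summit of Dox replicate 2 stood apart from those of the other 3 libraries, which lay between 5100517 and 5100546. In that library the signal was called as 2 peaks, the second of them, 282 bp wide, at 2.62-fold.

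The flanks of the PCNA window held weaker peaks in each library, which did not all overlap. At -6.87 to -6.46 kb from the leading summit, where RefSeq lists TMEM230 as the neighbour, each library had at least 1 peak. Enrichment was 2.56-fold and 2.66-fold in Dox replicates 1 and 2, 3.00-fold and 2.64-fold in PBS replicate 1 and 3.18-fold in PBS replicate 2. These peaks formed a site from 5093375 to 5093706 in 2 libraries and a site from 5093707 to 5094284 in 3. With peaks joined over gaps of up to 200 bp they became 1 site in all 4 libraries. With equal list length, or with summits within 250 bp joined, the site from 5093707 was found in both PBS libraries alone. On the other side, toward CDS2, a site 6.23 to 6.43 kb away was enriched 2.23-fold in Dox replicate 1 and 3.11-fold in Dox replicate 2, against 2.42-fold in PBS replicate 2. PBS replicate 1 had a separate 2.18-fold peak there, with its summit at 6.80 kb. Farther out, a site from 5108159 to 5108486 had 4.51-fold enrichment in Dox replicate 2 and 3.30-fold in PBS replicate 2, and no peak in the libraries of replicate number 1.

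RRM2B, the gene of the ribonucleotide reductase subunit, had a leading site with a summit between 103249073 and 103249175 in its window from 103206000 to 103262000 on chromosome 8. Enrichment was 4.91-fold and 3.95-fold in Dox replicates 1 and 2, against 2.92-fold and 4.27-fold in PBS replicates 1 and 2. The −log10 p was 6.56 and 4.58 in the Dox libraries, against 2.44 and 5.55 in the PBS libraries. PBS replicate 1 was the lowest, at percentile 56.1 of its list, while the other libraries stood at 97.7, 91.6 and 94.3, and PBS replicate 2 lay between the Dox libraries by p and by fold. The −log10 q was 2.38 and 0.478 in the Dox libraries, against 0 and 1.42 in the PBS libraries.

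With all peaks kept and merged by overlap, RRM2B was also the only window with a site that the PBS lists shared and the Dox lists lacked. That site, from 103250628 to 103251133, was enriched 2.88-fold in PBS replicate 1 and 2.81-fold in PBS replicate 2, with −log10 p of 2.73 and 2.68 and summits at 103250987 and 103250975. In PBS replicate 1 its p was smaller than that of the leading site. The next site, from 103251260 to 103252154, had 4.24-fold enrichment in Dox replicate 1, against 2.83-fold and 3.67-fold in PBS replicates 1 and 2, and none in Dox replicate 2. With peaks joined over gaps of up to 200 bp these sites became 1, and no site was then exclusive to PBS.

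GADD45A was the only locus at which all 4 libraries reached a −log10 q of 1.3 at the leading site. The window ran from 68140000 to 68164000 on chromosome 1, and the leading summits lay between 68152424 and 68152485, within 61 bp. Enrichment was 4.92-fold and 3.39-fold in Dox replicates 1 and 2, against 6.09-fold and 4.54-fold in PBS replicates 1 and 2. The −log10 p was 9.25 and 6.46 in the Dox libraries, against 9.85 and 9.46 in the PBS libraries, and the percentiles ran from 96.6 to 99.2 over the 4 lists. By −log10 p, both PBS values were above both Dox values, and the share of all sites that separate in this way was not computed. By fold the groups overlapped. They also overlapped by percentile, with 99.2 and 96.6 in the Dox libraries, against 99.1 and 98.6 in the PBS libraries. These p-values come from lists with unlike backgrounds and controls, so no change was read from them.

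GADD45A also had a second summit close by. It lay at -1576 bp from the leading one in Dox replicate 2, with 4.19-fold enrichment, against -1531 bp with 4.46-fold in PBS replicate 1 and -1606 bp with 4.56-fold in PBS replicate 2. In Dox replicate 2 its −log10 p of 6.66 slightly exceeded that of the leading summit. Dox replicate 1 had 1 peak of 2341 bp across the whole stretch, so the second summit was not listed there. No other peak lay in the window apart from a 2.28-fold peak of PBS replicate 1 at 68150574.

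Summit positions were also compared without the joining rule that defined the leading sites, by taking the peak of smallest p in each library at each of the 7 sites with a peak in all 4 libraries. Over the 3840 such sites of the genome, these summits differed by a median of 205 bp (interquartile range 91 to 437 bp). The summit spread was 57 bp at XPC, larger than at 13.9% of those sites, 70 bp at DDB2 (18.4%) and 102 bp at RRM2B (28.3%). It was 163 bp at POLH (42.8%), 188 bp at PCNA (47.4%) and 276 bp at the other DDB2 site (59.9%). At GADD45A it was 1598 bp (98.6%), since Dox replicate 2 had its smallest p at the second summit. The windows thus ranged from the narrow to the wide end of the genome's sites.

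Within a list, GADD45A ranked first of the 6 leading sites by p in Dox replicate 1 and in both PBS libraries, and second to PCNA in Dox replicate 2. XPC and POLH took ranks 4 to 6 in all 4 lists. DDB2 took ranks 2 and 6 in Dox replicates 1 and 2, against 2 and 3 in PBS replicates 1 and 2, and RRM2B took ranks 4 and 3, against 6 and 4. By fold, GADD45A took rank 3 in Dox replicates 1 and 2 and in PBS replicate 2, and rank 1 in PBS replicate 1 alone. Rank 1 by fold was DDB2 in Dox replicate 1, and PCNA in Dox replicate 2 and PBS replicate 2. The order thus differed between the replicates of 1 treatment as well as between treatments. Among the 3840 sites with a peak in all 4 libraries, the median percentile of p was higher at the GADD45A site than at 95.1% of them, at PCNA than at 93.4%, at DDB2 than at 89.0%, at RRM2B than at 76.9%, at XPC than at 60.7% and at POLH than at 57.5%. The other DDB2 site with a peak in all 4 libraries was higher than 53.7%. Leading sites were picked within their windows by this same percentile, so these shares are a description and no test.

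Few of the peaks passed a limit on q. In Dox replicates 1 and 2, 4 of 32 and 3 of 20 window peaks had a −log10 q of at least 1.3, where 3.66% and 4.84% of the whole lists did. In PBS replicates 1 and 2 these were 1 of 14 and 5 of 20, where 2.56% and 5.98% of the lists did. Apart from the second summit of GADD45A in Dox replicate 2 and PBS replicate 2, each of these was the peak of a leading site. At the other end, 13 of the 32 peaks of Dox replicate 1 had a −log10 p under 2, and 10 of those lay just past the calling threshold. That share was 40.6% and 5.0% of the window peaks in Dox replicates 1 and 2, against 14.3% and 10.0% in PBS replicates 1 and 2. Over the whole lists it was 34.6% and 20.2% in the Dox libraries, against 43.4% and 22.2% in the PBS libraries, so the window share was above that of the list in Dox replicate 1 and below it in the other 3.

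**Figure D3:**
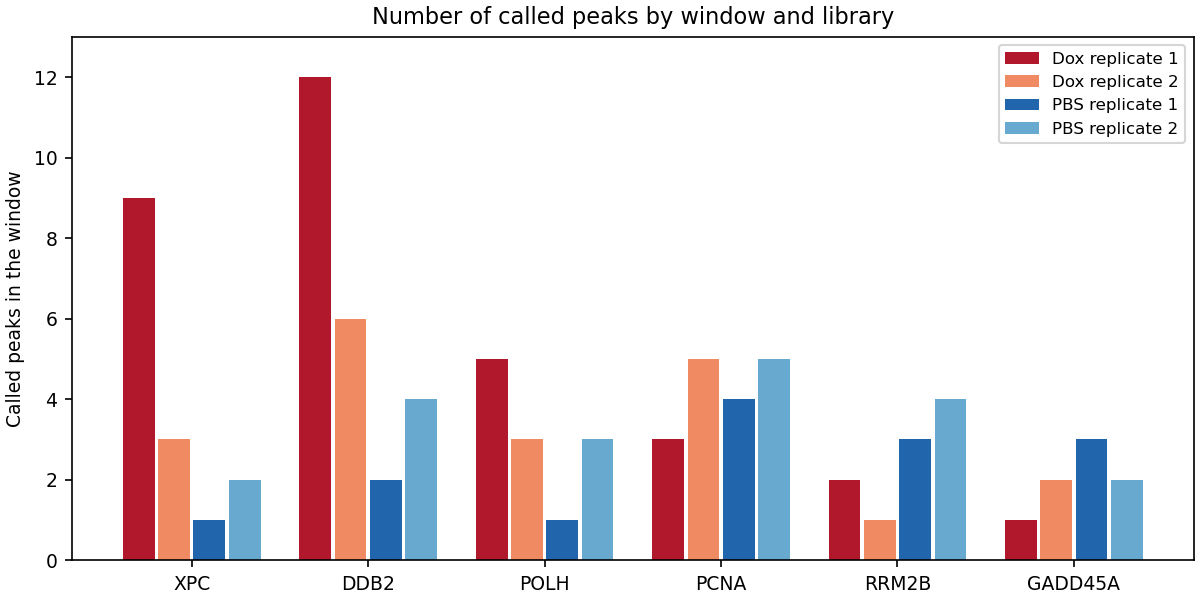
Number of called peaks in each window, with 1 bar per library. Dox replicate 1 has the highest bar at XPC, DDB2 and POLH, with 9, 12 and 5 peaks, and the PBS libraries have the higher bars at RRM2B, with 3 and 4 against 2 and 1.

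The comparison of doxorubicin with vehicle addresses whether p53 peaks at these genes differ after DNA damage. The windows held 32 and 20 peaks in Dox replicates 1 and 2, against 14 and 20 in PBS replicates 1 and 2. Dox libraries averaged 26.0 ± 8.49 window peaks and PBS libraries 17.0 ± 4.24 (SD, n = 2 each), a difference of 9.0 with groups that met at 20 peaks (two-sided exact permutation p = 0.667). With 2 libraries against 2 the test allows no p below 0.33, so it could not show a difference. The Dox minus PBS difference was 18 between the replicates numbered 1 (passage 3) and 0 between those numbered 2 (passage 5). Dox replicate 1 also had the longest list, and with the 11304 peaks of smallest p taken from each list the windows held 10 and 18 peaks in the Dox libraries, against 14 and 16 in the PBS libraries, a difference of means of -1.0.

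By gene, both Dox counts were above both PBS counts at XPC and DDB2, as in 2.99% of all stretches and in 13.6% of the 4388 stretches with a peak in each library. Both PBS counts were above both Dox counts at RRM2B, as in 0.475% and 1.78% of those stretches. XPC had 9 and 3 peaks in the Dox libraries, against 1 and 2 in the PBS libraries. DDB2 had 12 and 6 in the Dox libraries, against 2 and 4 in the PBS libraries, and RRM2B had 2 and 1, against 3 and 4. Each of these gave p = 0.33 in the two-sided exact permutation test, the smallest possible, and 0.667 after Benjamini-Hochberg adjustment over the 6 windows. POLH had 5 and 3 in the Dox libraries, against 1 and 3 in the PBS libraries, PCNA 3 and 5, against 4 and 5, and GADD45A 1 and 2, against 3 and 2. For these the groups overlapped, and the exact permutation p was 0.667 to 1.0 before adjustment. At GADD45A a lower count goes with the merged wide peak of Dox replicate 1.

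With lists cut to equal length, the separation at XPC was lost and those at DDB2 and RRM2B were kept. The cut removes the weakest peaks and takes most from the longest list, and the cause was not tested. With 11304 peaks from each list, XPC had 1 and 2 peaks in the Dox libraries, against 1 and 1 in the PBS libraries, and the groups overlapped, the difference of means being 0.5 in place of 4.5. DDB2 had 4 and 6 in the Dox libraries, against 2 and 3 in the PBS libraries, a difference of 2.5 in place of 6.0. RRM2B kept its counts of 2 and 1 in the Dox libraries, against 3 and 4 in the PBS libraries. In lists of that length both Dox counts were above both PBS counts in 1.10% of all stretches and in 6.18% of the 2814 stretches with a peak in each library, and both PBS counts were above both Dox counts in 1.04% and 5.69%.

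The authors also matched peaks between the replicates of a condition and gave each pair an irreproducible discovery rate (IDR), which is small for pairs that rank high in both lists. The windows held 10 of 8784 Dox pairs and 11 of 6244 PBS pairs, and each window had at least 1 pair in each condition. An IDR of at most 0.05 was reached by 8 of the 10 Dox pairs, where 27.5% of all Dox pairs did, and by 3 of the 11 PBS pairs, where 15.0% of all PBS pairs did. The Dox pairs included the leading site of all 6 genes, with IDR of 0.000215 at GADD45A, 0.00146 at PCNA, 0.00196 at RRM2B, 0.00858 at XPC, 0.0181 at POLH and 0.0221 at DDB2. The PBS pairs passed at GADD45A, DDB2 and PCNA, with IDR of 0.000143, 0.00342 and 0.00596, while the leading pairs of XPC, POLH and RRM2B had 0.161, 0.321 and 0.436. Some leading pairs took in a further peak of a library, and their −log10 p then differed from that of the leading peak. For Dox replicate 2 it was 5.74 against 9.05 at PCNA and 6.56 against 6.46 at GADD45A. For PBS replicate 2 it was 3.68 against 4.47 at POLH.

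IDR is fitted within each condition's table, and there is 1 table per condition, so the difference in these counts has no replicate and was not tested. PBS replicate 1, the shortest list, had −log10 p of 3.35, 3.16 and 2.44 at the leading sites of XPC, POLH and RRM2B, below PBS replicate 2 with 4.48, 4.47 and 5.55. The part of that library in the PBS pairs was not tested. At DDB2 and GADD45A the leading pair had the smaller IDR in the PBS table. The GADD45A pairs are unlike in extent, since the Dox pair spans both summits and the PBS table holds 2 separate pairs there.

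**Figure D4:**
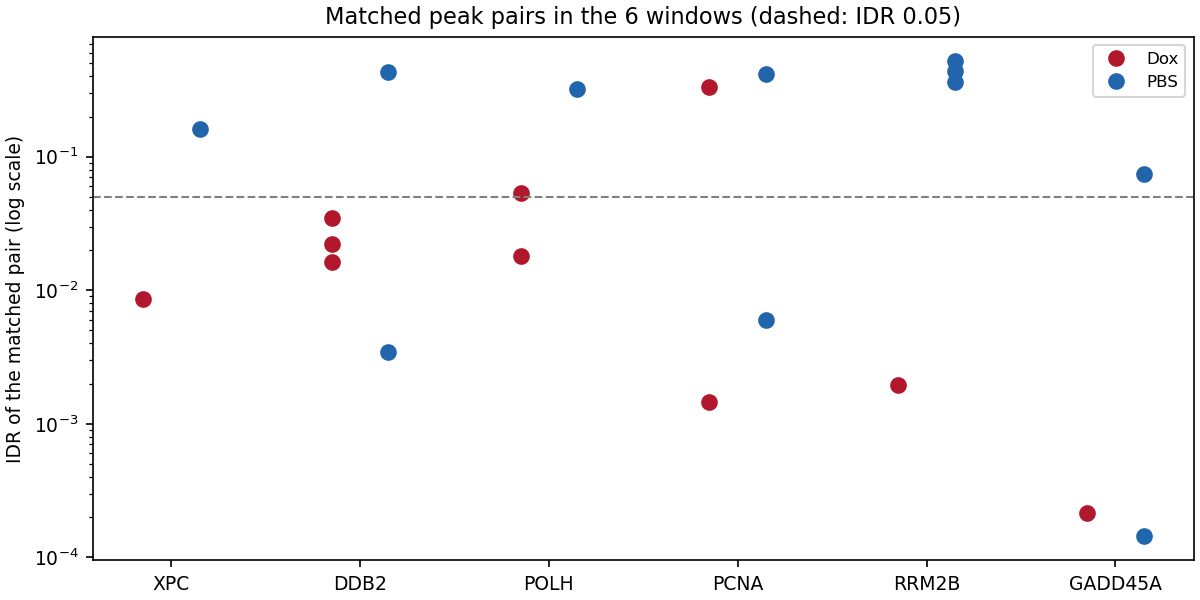
IDR of each matched peak pair in the 6 windows on a log axis, Dox left of PBS for each gene, with a dashed line at 0.05. The Dox points lie at or below 0.0531 except one PCNA pair at 0.331, while the XPC, POLH and RRM2B points for PBS all lie at 0.161 or higher.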

How the data were processed

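The series measured p53 binding by ChIP-seq in 293T cells, with 4 ChIP libraries (2 Dox, 2 PBS) and 4 input samples, which were not analysed here. BWA, MACS2 and the build hg19 are named in the submitters' processing notes; their versions, the filters and the depth were not found there (not given in the sources used here). For each library the authors deposited 1 peak list, called at p under 0.05 as the peak names state. Each deposited peak has a fold enrichment (a ratio over the caller's local background), a p-value and a q-value as −log10, and a summit position. The authors also deposited 1 table of matched pairs per condition, holding a −log10 p-value for either side of a pair. Where several window peaks of 1 library fell in a pair, that value lay between theirs. Per the file headers, the IDR and local IDR are given as a fraction, and the local IDR was not used.

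Window peaks were found by 1 bp of overlap, and all lists were merged into sites by the same overlap. Starts are given counted from 1, and summits as deposited. The group difference in peak number used a two-sided exact permutation test over libraries. On simulated lists with 2000 planted sites, 0 came back in a wrong pattern. The alternatives were a limit on q, on p or on IDR, equal list length, summits or pair midpoints inside the window, windows extended by 10 kb, other merging distances, leaving out each library and the replicate block. The named genes are the 6 members, and the genes, windows and lists were chosen with earlier results of these data known. Other genes of these pathways were not analysed, since the gene table used here is on GRCh38 and was used for names and neighbours only. The computing was done in Python 3.11.15, using pandas 2.3.3 on numpy 2.4.6, scipy 1.17.1 for tests and, for figures, matplotlib 3.10.9.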

Additional observations from a re-analysis of the deposited data

How the results depend on the processing

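The counts rest on 2 libraries per condition of unknown depth, so absence from a list may reflect its length or depth. Among the values recomputed, 92 were differences that kept their direction, whatever their size, or counts within 1.5 times, 31 were counts that moved further or differences that became 0, and 4 turned round, and the cause was not tested unless given here. The Dox minus PBS difference in window peaks, 9.0, was -1.0 with equal list length, which takes fewer peaks from the longer lists by construction, and ranged from 3.0 (without Dox replicate 1) to 15.0 (without Dox replicate 2) when 1 library was left out. At POLH the difference of 2.0 became -0.5 at a −log10 p of at least 3, and at PCNA the difference of -0.5 became 0.5 at a −log10 q of at least 1.3. The difference became 0 at XPC and RRM2B under either limit, at DDB2, POLH and GADD45A under the limit on q, at PCNA under the limit on p and at POLH with equal list length. At XPC and POLH the limit on q left no peak in any library. When 1 library was left out the differences ranged from 1.5 to 7.5 at XPC, 3.0 to 9.0 at DDB2, -2.5 to -1.5 at RRM2B, 1.0 to 3.0 at POLH, -1.5 to 0.5 at PCNA and -1.5 to -0.5 at GADD45A. At PCNA the omission of Dox replicate 1 gave 0.5 and that of PBS replicate 2 gave 0.

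At a −log10 q of at least 1.3, windows with a peak in both libraries of a condition fell to 2 for Dox and 1 for PBS, against 6 each for all peaks, and sites in all 4 libraries fell to 1, against 7. That 1 site was GADD45A, and at a −log10 p of at least 3 there were 3, at GADD45A, PCNA and XPC. Sites in both Dox libraries and neither PBS library, 0 for all peaks, numbered 1 at a −log10 p of at least 3, with equal list length, and with summits within 250 bp joined, a setting chosen after seeing the data. With 1 Dox library left out, the peak had to lie only in the other Dox library. Such sites numbered 4 without Dox replicate 1 and 19 without Dox replicate 2. With 1 PBS library left out, the peak had to be missing only from the other PBS library. Those sites numbered 0 without PBS replicate 1 and 3 without PBS replicate 2. Sites in both PBS libraries and neither Dox library, 1 for all peaks, numbered 0 under either limit or with peaks within 200 bp joined. They numbered 2 with equal list length or windows extended by 10 kb, and 3 with joined summits. With a library left out they numbered 2 to 5. The 5 came without PBS replicate 1, where only PBS replicate 2 had to hold the peak. PBS pairs numbered 11, and 3 at an IDR of at most 0.05.

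The replicate block gave a difference of 9.0 in window peaks, the same as without the block by construction. Samples with the same number shared a passage, 3 or 5, but were not taken as pairs. Their deviations correlated at r = 0.0478 over 3840 sites in all 4 libraries and 0.0743 over 26031 sites of lists of equal length. An effect of passage at single sites was not tested.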
